A study of Mus musculus with 8 samples.

Results

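The comparison was between the 2 CX3CR1int fractions of the inflamed colon, Ly6Clo cells against Ly6Chi cells, with 1 array of each among the 8 arrays of the series. Both fractions came from the colonic lamina propria, the tissue beneath the epithelium, of C57BL/6 mice at day 4 of colitis, and were gated on a flow sorter. Colitis was brought on with dextran sodium sulphate, which injures the epithelial lining. Every mouse of the series, controls included, was Cx3cr1gfp/+, so that 1 copy of the fractalkine receptor gene was replaced by that of a green fluorescent protein, and both CX3CR1int arrays were labelled male. The other 6 arrays, used here for context, were colonic CX3CR1hi F4/80hi cells (male) and splenic Ly6Chi monocytes (male) of the same colitis day, and steady-state colonic CX3CR1hi F4/80hi cells (male), CX3CR1hi resident macrophages (female), monocyte-reconstituted CX3CR1hi resident macrophages (female) and splenic Ly6Chi monocytes (female). The labels give no number of mice per array and no replicate, and they name the CX3CR1int fractions by surface gates and not by cell type.

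Ly6Chi monocytes are blood-borne cells that enter inflamed tissue through the chemokine receptor CCR2, carry haptoglobin, coagulation factors and pattern recognition receptors, and lose surface Ly6C as they mature. Conventional dendritic cells take up antigen in the gut wall, depend on the growth factor receptor FLT3, and travel to lymph nodes through CCR7 to present antigen to T cells on MHC class II. Some of their precursors still divide in the tissue. The series title names effector cells and migratory antigen-presenting cells as fates of Ly6Chi monocytes, and the Ly6Clo against Ly6Chi comparison asks how the fractions differ in these programmes.

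Values are the deposited log2 signals, on which a difference of 1 is 2-fold, and all differences are Ly6Clo minus Ly6Chi. A gene entered when the brighter of both arrays stood at or above that array's median (5.84 for Ly6Clo, 5.86 for Ly6Chi), which 10132 of 19938 genes did. The Ly6Clo array was brighter by 2-fold or more for 655 genes (6.46%) and dimmer by as much for 558 (5.51%), and 8919 (88.0%) were closer than 2-fold. The median difference was 0.01 and the SD over genes 0.74. With 1 array a group these differences have no replicate check, and no test was made of them. The level of a gene on such an array cannot tell fewer cells of a type from less RNA per cell.

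**Figure D1:**
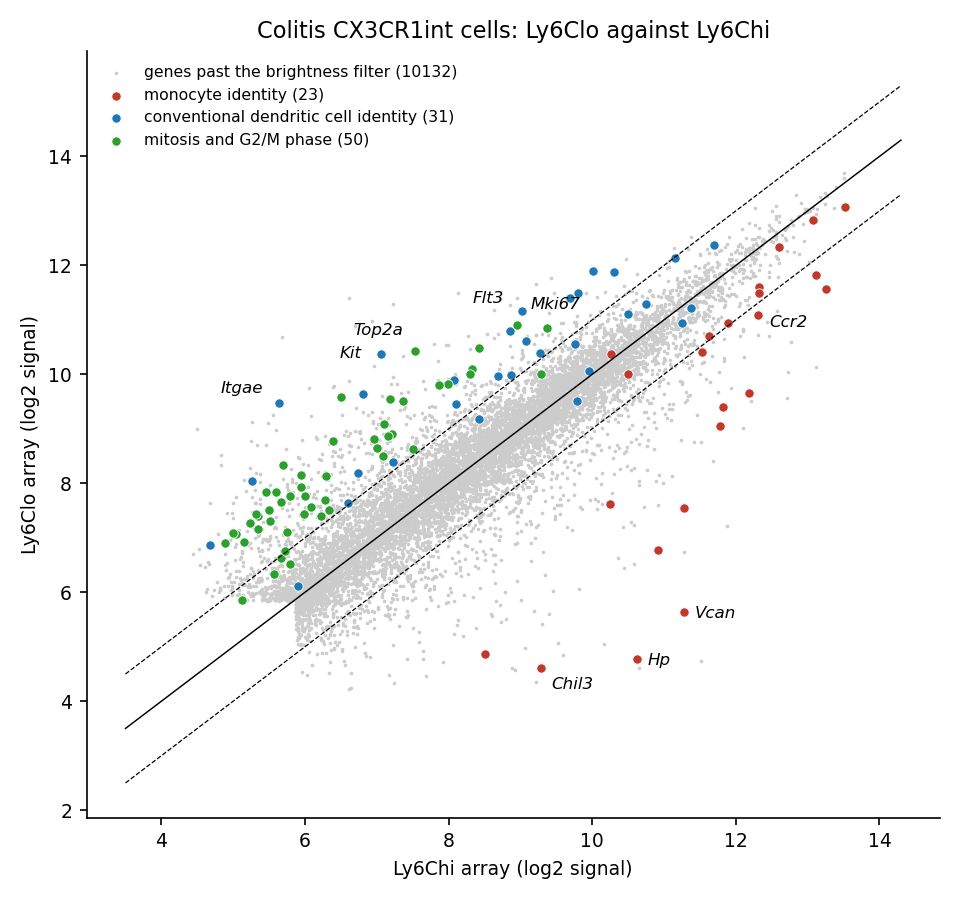
Log2 signal of each gene in the Ly6Chi array (horizontal) and the Ly6Clo array (vertical), for the 10132 genes that entered, with members of 3 gene lists in colour, the line of equal signal and dashed lines at 2-fold. Monocyte genes such as Hp, Vcan and Chil3 lie below the line, and dendritic cell genes such as Itgae and Flt3 and mitosis genes lie above it.

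The start regions of 4 cell cycle genes that were higher in the Ly6Clo array are shown because they carry the sequence elements for which such genes are known. In mammals, mitotic genes are known for a CCAAT box together with a cell cycle homology element (TTTGAA), and DNA replication genes for E2F sites. The windows run from 250 bases before to 50 after the start of transcription, from RefSeq on GRCm38.p6, 5′ to 3′ on the gene's strand. Capitals mark every match on either strand to CCAAT, to TTTGAA, or to an E2F site searched as TTTCCCGC, TTTCGCGC, TTTGCCGC or TTTGGCGC. Top2a encodes the topoisomerase that untangles DNA before division (chr11:99024140-99024439, minus strand), and Kif11 the motor protein that separates spindle poles (chr19:37376132-37376431, plus strand). Mcm6 (chr1:128359656-128359955, minus strand) and Mcm7 (chr5:138171834-138172133, minus strand) encode subunits of the helicase that opens DNA for replication.
Top2a: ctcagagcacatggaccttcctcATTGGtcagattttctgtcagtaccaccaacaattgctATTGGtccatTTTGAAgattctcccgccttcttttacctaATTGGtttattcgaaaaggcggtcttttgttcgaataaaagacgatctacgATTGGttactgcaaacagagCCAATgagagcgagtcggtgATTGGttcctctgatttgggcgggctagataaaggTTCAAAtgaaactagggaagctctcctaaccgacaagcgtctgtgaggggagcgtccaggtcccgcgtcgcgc
Kif11: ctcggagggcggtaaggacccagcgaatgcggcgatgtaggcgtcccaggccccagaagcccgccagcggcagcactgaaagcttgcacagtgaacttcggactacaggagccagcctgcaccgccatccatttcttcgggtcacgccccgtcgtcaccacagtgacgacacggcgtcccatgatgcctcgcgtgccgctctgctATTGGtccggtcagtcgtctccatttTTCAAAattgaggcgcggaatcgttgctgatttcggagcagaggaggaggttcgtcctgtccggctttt
Mcm6: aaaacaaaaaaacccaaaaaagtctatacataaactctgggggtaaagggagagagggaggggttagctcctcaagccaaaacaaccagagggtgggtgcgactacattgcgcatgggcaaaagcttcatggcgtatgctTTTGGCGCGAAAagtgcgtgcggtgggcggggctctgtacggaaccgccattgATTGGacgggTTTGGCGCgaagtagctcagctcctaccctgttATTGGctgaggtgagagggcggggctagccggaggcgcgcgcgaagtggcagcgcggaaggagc
Mcm7: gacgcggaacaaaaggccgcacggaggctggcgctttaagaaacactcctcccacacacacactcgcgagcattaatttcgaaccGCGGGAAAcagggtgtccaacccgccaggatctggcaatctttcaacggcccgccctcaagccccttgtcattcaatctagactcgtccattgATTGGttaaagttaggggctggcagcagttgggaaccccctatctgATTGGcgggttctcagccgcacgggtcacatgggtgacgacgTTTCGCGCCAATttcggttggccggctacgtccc
In Top2a a TTTGAA element on the reverse strand begins 23 bases before the start, and in Kif11 one begins 19 bases before it. In Mcm6 the first E2F match overlaps another, and in Mcm7 the last E2F match overlaps a CCAAT box. Of the 43 mitosis genes with a RefSeq window, using the first listed start of each gene, 26 (60.5%) held both CCAAT and TTTGAA, against 5.1% of the 8164 windows of genes that entered and 7.12% of all 27025 windows. An E2F match was in 9 of 32 replication genes (28.1%), against 4.34% of genes that entered and 2.32% of all windows. CCAAT, with or without the other motifs, was in 69.8% of mitosis and 62.5% of replication windows, against 38.5% of those of genes that entered. These matches describe the letters and show no binding.

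Genes of mitosis and of DNA replication were higher in the Ly6Clo array almost throughout. Of 51 mitosis and G2/M genes, 50 were measured and entered, and 45 of them were at least 2-fold higher and none lower, with a median difference of 1.84 beside 0.01 over all genes. Of 41 DNA replication and S phase genes, 39 were measured and entered, 28 of them 2-fold higher and none lower, with a median of 1.39. Ly6Clo was the highest of the 8 arrays for 49 of the 50 and 34 of the 39, whereas it was the highest for 20.6% of all genes that entered. In the Ly6Chi array 29 of the 50 mitosis genes stood at or above the array median, so the others entered through the Ly6Clo array alone.

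Mki67, the proliferation antigen of dividing cells, stood at 10.85 in the Ly6Clo array against 9.38 in the Ly6Chi array, with 9.49 to 9.96 in the CX3CR1hi arrays and 8.08 and 8.03 in the splenic arrays. Cdk1, the kinase that starts mitosis, stood at 9.09 against 7.11, and the CX3CR1hi arrays lay between them (7.88 to 8.49). Bub1, a kinase of the spindle checkpoint, had the largest difference of the list, at 9.58 against 6.50. In each of these 3 genes the Ly6Clo level was thus above all other arrays, and the Ly6Chi level was below every CX3CR1hi array. Top2a read 10.42 against 7.54 on its brighter probe set, a difference of 2.89, but its other probe set gave 0.55. Ccnb2, a mitotic cyclin, differed by 1.97, Kif11 by 2.36, Anln, which acts in cytokinesis, by 2.63, and Foxm1, a transcription factor of mitotic genes, by 2.09.

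Among the replication genes, Mcm6 stood at 9.38 in the Ly6Clo array against 6.71 in the Ly6Chi array and Mcm7 at 9.25 against 6.88. Rrm2, a subunit of ribonucleotide reductase, which makes DNA building blocks, stood at 8.49 against 5.90. Pole (2.42) and Prim1 (2.49), which encode a DNA polymerase and a primase subunit, were higher as well. In the CX3CR1hi arrays these genes lay between the fractions, as with Mcm6 (7.61 to 8.14) and Rrm2 (6.21 to 7.09). Of 19 G1 regulators 5 were 2-fold higher and 1 lower. The higher ones included the cyclin genes Ccnd1 (11.39 against 8.95) and Ccnd2 (11.48 against 9.47) and the growth regulator Myc (9.37 against 8.23), and the lower one was the cell cycle inhibitor gene Cdkn2d (6.53 against 8.09).

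Dendritic cell genes were the second large group on the Ly6Clo side. All 32 conventional dendritic cell genes were measured, 31 entered, 20 were at least 2-fold higher and none lower, and the median difference was 1.28. Ly6Clo was the highest of the 8 arrays for 26 of the 31. Flt3 stood at 11.16 in the Ly6Clo array against 9.03 in the Ly6Chi array, with 8.85 and 8.80 in the splenic arrays and 4.87 to 5.32 in the CX3CR1hi arrays. Zbtb46, a transcription factor that marks conventional dendritic cells, stood at 6.86 against 4.67, and no other array exceeded 4.45. Both fractions thus carried Flt3 signal far above that of the CX3CR1hi macrophages, whereas Zbtb46 stood apart in the Ly6Clo array alone.

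Itgae, which encodes the CD103 integrin chain that binds epithelial cadherin, stood at 9.47 against 5.64, with the 6 other arrays between 4.66 and 4.98. Kit, a growth factor receptor of precursors and mast cells, stood at 10.37 against 7.06. The mast cell markers Cpa3 and Mcpt1 did not enter, nor did any other mast cell marker on the list. The part of mast cell RNA in the Kit signal was not tested. Itgax, the CD11c integrin gene, stood at 11.90 against 10.01, close to the CX3CR1hi arrays (11.46 to 11.68). Markers of type 1 conventional dendritic cells were 2-fold higher in 7 of 9, among them Clec9a, a receptor for dead cells (9.65 against 6.81), Xcr1, a chemokine receptor (8.19 against 6.74), and Batf3, their transcription factor (7.63 against 6.60). Irf4, a transcription factor of type 2 dendritic cells, stood at 9.46 against 8.11, and Clec10a, a lectin of the same cells, at 10.80 against 8.85. Markers of both dendritic cell types were therefore on the Ly6Clo side, in the bulk RNA of 1 sorted fraction.

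Some dendritic cell genes were high in both fractions. Cd209a, a lectin gene of monocyte-derived and type 2 dendritic cells, stood at 12.38 in the Ly6Clo array and 11.69 in the Ly6Chi array, against 10.24 and 10.64 in the splenic and at most 8.18 in the CX3CR1hi arrays. Irf8 (11.28 and 10.75) also lay within 2-fold.

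Genes of mature, migrating dendritic cells held the largest differences in this direction. Of 31 such genes 28 were measured and entered, 13 were 2-fold higher and 1 lower, and the median was 0.77. The chemokine genes Ccl22 (10.69 in the Ly6Clo array against 5.68 in the Ly6Chi array) and Ccl17 (10.88 against 6.69), whose products attract T cells, led with Apol7c (11.39 against 6.62) and Fscn1, which encodes an actin bundler of dendrites (11.29 against 7.22). Ccl22 did not exceed 5.73 in any of the 6 other arrays, whereas Apol7c stood at 10.80 to 12.06 in the CX3CR1hi arrays. Ccr7, the lymph node homing receptor, stood at 11.66 against 9.21, and both values were above the CX3CR1hi (6.33 to 6.52) and splenic arrays (6.25 and 6.69). Socs2, a feedback inhibitor of cytokine signalling (2.54 and 1.81 on its 2 probe sets), Pdcd1lg2, an inhibitory ligand for T cells (2.59), and Aldh1a2, an enzyme of retinoic acid synthesis (6.70 against 4.45), were also higher. Il15, a cytokine for lymphocytes, was the member that was lower (7.75 against 9.11).

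Antigen presentation genes split by kind. H2-Eb2 (9.76 against 6.06), H2-Oa (9.79 against 6.41) and H2-Ob (11.38 against 8.71), the last 2 encoding the modulator of class II peptide loading, were higher in the Ly6Clo array. The classical class II gene H2-Ab1 was high in both fractions, at 13.10 and 12.55, and 10 of the 14 class II genes that entered were within 2-fold. Of 14 costimulation genes 2 were 2-fold higher and 1 lower (median 0.13), with Icosl, a ligand for activated T cells, at 10.92 against 9.77 and Vsir, an inhibitory receptor gene, at 9.88 against 11.22. Other genes among the 15 furthest on the Ly6Clo side were Mreg (4.50), Serpinb6b (4.04), a protease inhibitor gene, Strip2 (3.87), Adam23 (3.69), Cldn1, a tight junction gene (3.69), Gpr33 (3.63), Nudt17 (3.52) and Il22ra2, the decoy receptor for interleukin 22 (8.34 against 4.83).

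**Figure D2:**
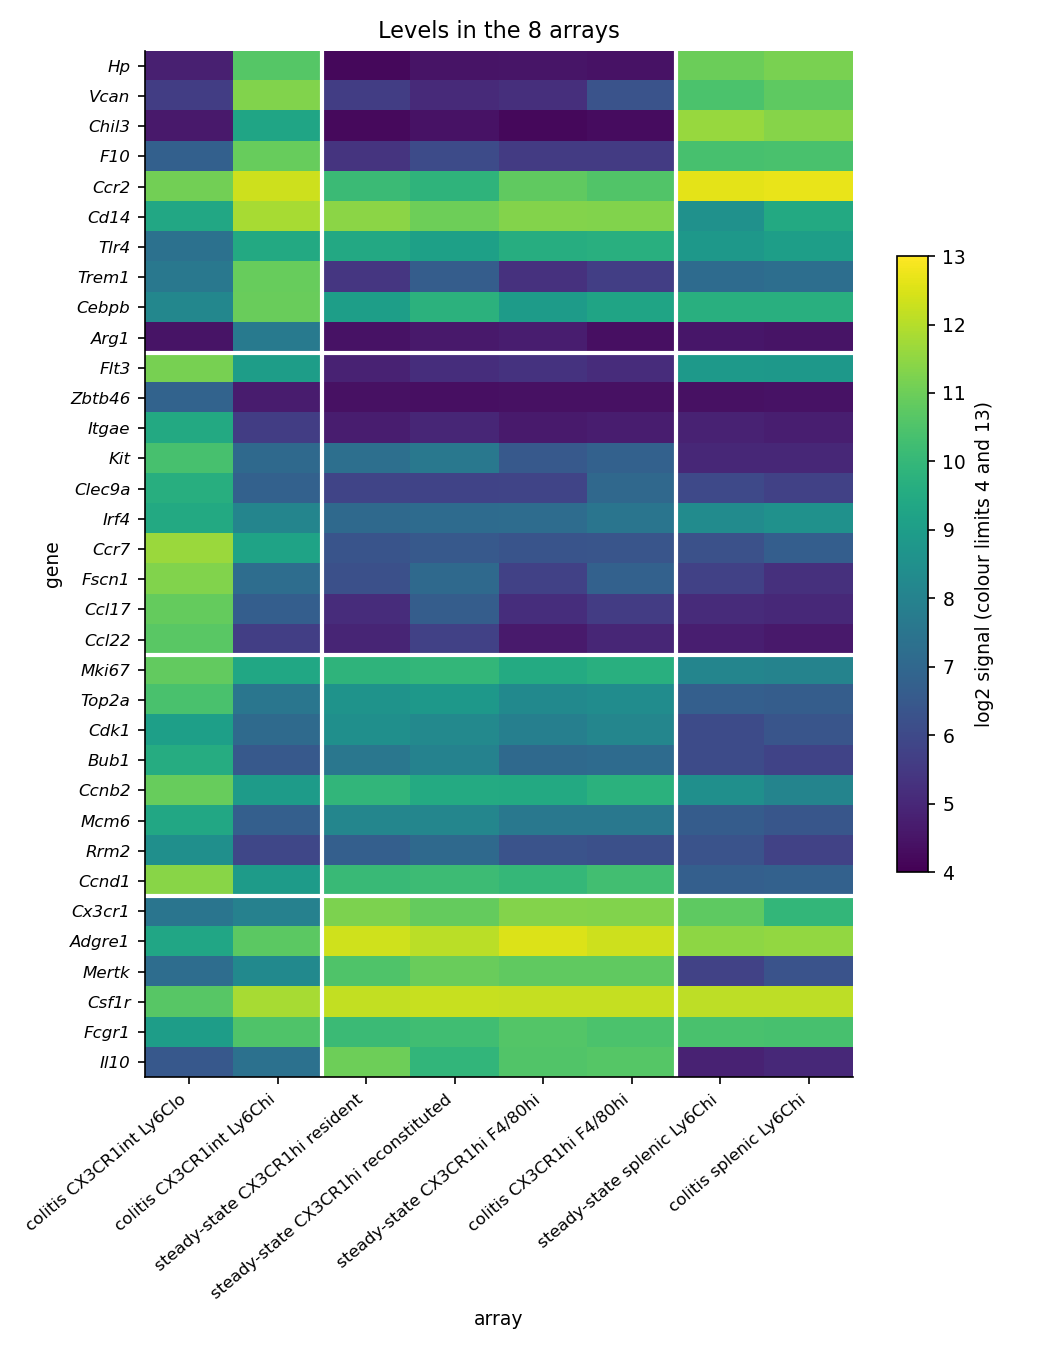
Log2 signal of 34 genes (rows) in the 8 arrays (columns), the 2 colitis CX3CR1int arrays at the left, then 4 CX3CR1hi and 2 splenic Ly6Chi arrays. Dendritic cell and cell cycle genes are brightest in the Ly6Clo column, while Hp, Vcan, Chil3 and F10 are bright in the Ly6Chi and splenic columns and dim in the Ly6Clo and CX3CR1hi columns.

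Monocyte genes formed the other side of the comparison. Of 27 monocyte identity genes 25 were measured and 23 entered, of which none was 2-fold higher and 14 were lower in the Ly6Clo array, with a median difference of -1.30. Hp, which encodes haptoglobin, stood at 4.78 in the Ly6Clo array against 10.62 in the Ly6Chi array, with 10.99 and 11.18 in the splenic and 4.18 to 4.53 in the CX3CR1hi arrays. Vcan, a matrix proteoglycan gene, stood at 5.64 against 11.28, and Chil3, a chitinase-like protein gene, at 4.60 against 9.28. For Hp and Vcan the Ly6Chi array lay within 2-fold of both splenic arrays. For Chil3 it lay between the CX3CR1hi arrays (4.19 to 4.43) and the splenic arrays (11.61 and 11.35). Ccr2 differed less, at 11.09 against 12.32, and the Ly6Clo level was still above all CX3CR1hi arrays (9.86 to 10.79). Plac8 (11.60 and 12.32) and S100a4 (10.37 and 10.26) were within 2-fold.

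The largest difference of all was that of Ly6a2, a gene of the Ly6 family, at 4.73 in the Ly6Clo array against 11.51 in the Ly6Chi array. Probes of related Ly6 genes may share its signal, and Ly6c1 and Ly6c2, whose product defined the gates, are not analysed here. Plcb1, a phospholipase (5.07 against 9.53), Arhgef37 (4.58 against 8.92) and Mmp8, a collagenase (4.35 against 9.22), followed the same pattern, with high signal in both splenic arrays and low signal in the CX3CR1hi arrays. Adck1 read -4.66 on 1 probe set and 0.23 on the other, so its difference rests on the first.

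Among 25 coagulation and matrix genes 15 were 2-fold lower and 4 higher (median -1.40). F10 (6.77 against 10.92), F5 (4.86 against 8.51) and F13a1 (7.55 against 11.28), genes of clotting factors, were on the lower side with Fn1, the fibronectin gene (9.65 against 12.18), and Thbs1 (11.56 against 13.25). Serpinb2, an inhibitor of plasminogen activators (5.21 against 8.20), was high in the Ly6Chi array alone, as no other array exceeded 5.21. Timp1, an inhibitor of matrix proteases, stood at 6.48 against 8.37, both above the 6 other arrays (at most 5.04). The 4 higher genes were Mmp25 (9.83 against 7.19), Mmp12, the macrophage elastase (8.73 against 6.34), Procr (8.32 against 6.93) and Plau (8.64 against 7.33).

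Acute phase and chitinase-like genes showed the same lean, with 10 of 16 lower, 1 higher and a median of -2.50, against -0.66 over all 21 measured without the filter. Chil1 stood at 4.62 against 10.65, Saa3, an acute phase apolipoprotein gene, at 5.60 against 9.40, and Slpi, a protease inhibitor gene, at 5.66 against 9.19. Arg1, the arginase gene, stood at 4.46 against 7.68, and no other array exceeded 4.72. Its signal above the array median was thus seen in Ly6Chi cells alone. Retnla, a resistin-like gene, was the member that was higher (8.86 against 6.16).

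For pattern recognition receptors, 13 of 25 genes were 2-fold lower and 1 was higher (median -1.12). The lectin receptor genes Clec4d (6.06 in the Ly6Clo array against 9.81 in the Ly6Chi array) and Clec4e (9.02 against 12.10), the amplifying receptors Trem3 (6.02 against 9.45) and Trem1 (7.60 against 10.92), Tlr7 (7.19 against 10.43) and Tlr8 (8.14 against 11.11) had the largest differences. The components of lipopolysaccharide sensing went the same way, with Cd14 at 9.39 against 11.82, Tlr4 at 7.35 against 9.48 and Ly96 at 8.69 against 10.77. For these 3 genes the Ly6Clo level was below the CX3CR1hi arrays as well. Tlr3, a sensor of double-stranded RNA found in type 1 dendritic cells, was the member that was higher (8.40 against 7.23).

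Inflammatory mediators were divided. Of 19 that entered, 7 were lower, 1 higher and 11 within 2-fold (median -0.98). Lower were Il1a (8.24 against 10.54), Inhba (5.49 against 8.14), Tnfsf14 (5.46 against 8.73), Osm (10.17 against 11.39), Vegfa, a vascular growth factor (9.79 against 10.93), Ptges, a prostaglandin E synthase gene (-1.30), and Il23a, a subunit of interleukin 23 (6.07 against 7.74). Il12b, the subunit shared by interleukins 12 and 23, ran the other way, at 8.28 in the Ly6Clo array against 5.23 in the Ly6Chi array. Il1b was at the same level in both (12.96 and 12.95), as was Tnf (8.86 and 8.91), and Il6 just missed 2-fold (7.80 and 8.78). Nos2 did not enter (5.15 and 5.80). Chemokine genes were higher in 5 and lower in 6 of 21 (median -0.06), the lower ones including Cxcl3 (5.08 against 7.59), Cxcl2 (9.53 against 11.32), Ccl6 (10.32 against 12.12) and Ccl9 (9.85 against 11.64).

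Smaller shifts were spread over other programmes. Hypoxia and glycolysis genes included 7 of 23 that were lower and none higher (median -0.67), with the lactate exporter gene Slc16a3 at 8.56 against 10.44 and Bnip3, a mitophagy receptor gene, at 7.68 against 9.35. Ly6Chi was the highest of the 8 arrays for 14 of the 23, against 9.12% of all genes that entered. Type I interferon response genes lay below 0 in 22 of 23 (median -0.59), beside 48.6% of all genes that entered. Only Siglec1 (6.69 against 8.64) and Oas3 (8.12 against 9.31) were 2-fold lower, beside 5.51% of all genes. Interferon gamma response genes had a median of 0.28, with 2 of 16 higher, Psmb9 (1.02) and Ciita (1.01). Fc receptor genes were lower in 2 of 5, Fcgr3 (a difference of -2.19) and Fcgr1 (-1.52).

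Among 36 lineage transcription factor genes 5 were higher and 6 lower (median -0.03). The lower ones were led by Cebpb (8.16 in the Ly6Clo array against 10.93 in the Ly6Chi array), which encodes a factor of monocyte genes, followed by Id3 (5.95 against 7.99), Zeb2 (9.83 against 11.25) and Cebpd (5.87 against 7.22). The higher ones were Zbtb46, Irf4, Batf3, Stat4 (11.45 against 10.33) and Bhlhe40 (11.53 against 10.51). Of 13 growth factor receptor genes 8 were within 2-fold (median -0.13). Csf3r (8.27 against 10.58) and Csf1r (10.65 against 11.84) were lower, and Flt3, Kit and Il7r (10.01 against 8.10) higher.

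**Figure D3:**
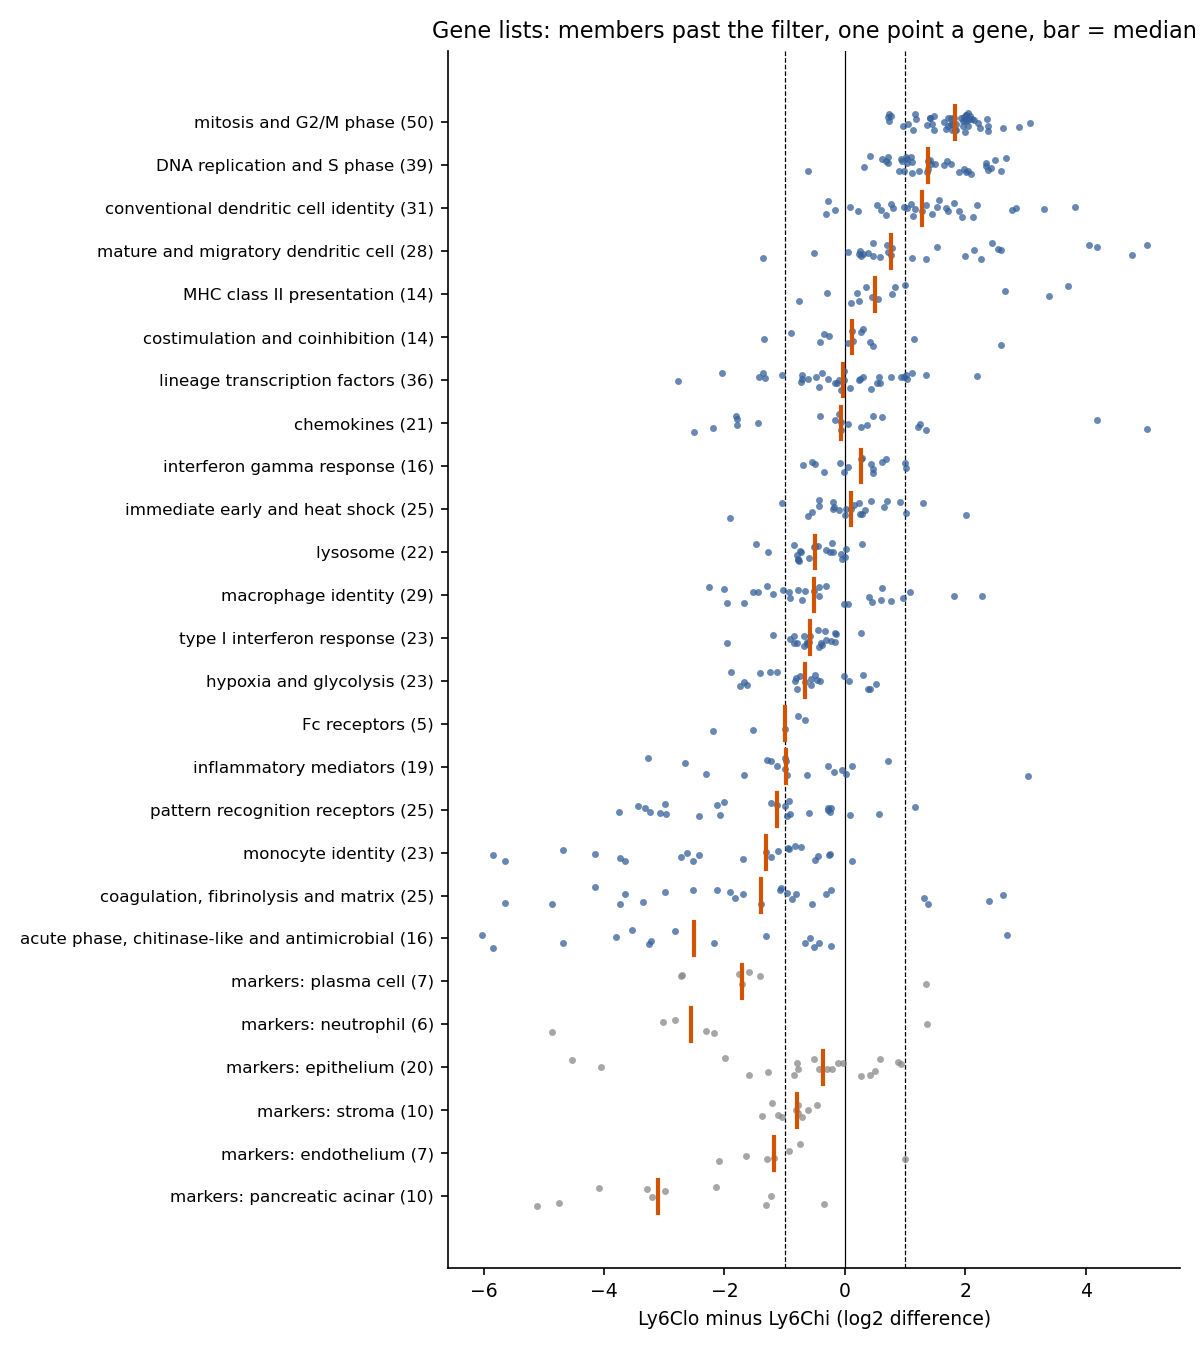
Ly6Clo minus Ly6Chi log2 differences for the members of 26 gene lists that entered (1 point a gene, number in brackets, orange bar at the median, dashed lines at 2-fold, grey points for markers of other cells). Cell cycle and dendritic cell lists lie to the right of 0, and monocyte, coagulation and acute phase lists to the left.

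Of 29 macrophage identity genes 9 were lower, 3 higher and 17 within 2-fold (median -0.51). More of this list thus lay on the Ly6Chi side. Its median level was nonetheless 8.68 in the Ly6Clo array against 8.34 in the Ly6Chi array. Adgre1, which encodes F4/80, stood at 9.31 in the Ly6Clo array against 10.75 in the Ly6Chi array, with 12.05 to 12.51 in the CX3CR1hi arrays. Mertk, a receptor for dying cells, stood at 7.23 against 8.26, with at least 10.51 in the CX3CR1hi arrays. Apoe (9.92 against 11.59), Trem2 (5.96 against 8.21) and Selenop (10.80 against 12.10) were lower as well. Timd4 (8.87 against 6.59), Hpgds (8.18 against 6.36) and Cbr2 (8.49 against 7.40) were the 3 that were higher. Il10 was low in both fractions, at 6.46 and 7.37, against at least 9.92 in the CX3CR1hi arrays.

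The same question was put to genes chosen on the 6 other arrays alone, at least 2-fold apart between the means of the CX3CR1hi and splenic arrays with no overlap. Of 901 genes higher in the splenic monocytes, 162 (18.0%) were 2-fold lower in the Ly6Clo array and 27 (3.00%) higher, and 640 lay below 0 (median -0.31). Of 1423 genes higher in the CX3CR1hi cells, 206 (14.5%) were 2-fold higher and 138 (9.70%) lower, and the median was 0.01. Among all genes that entered, 6.46% were higher and 5.51% lower, and 48.6% lay below 0. Genes higher in the splenic arrays thus lay mostly on the low side in Ly6Clo cells, while genes higher in the CX3CR1hi arrays were spread to both sides. The second set compares colon with spleen and can hold genes of other colonic cells. Epithelial markers, for example, summed to 15.60 to 16.20 in the CX3CR1hi against 9.42 to 10.42 in the splenic arrays. Across the 10132 genes the Ly6Clo minus Ly6Chi difference correlated weakly with the CX3CR1hi minus splenic difference (Pearson r = 0.15, across genes, which are not independent). Over those genes the Ly6Clo array correlated with the Ly6Chi array at 0.90, with the CX3CR1hi arrays at 0.82 to 0.85 and with the splenic arrays at 0.80 and 0.82. For the Ly6Chi array the values were 0.84 to 0.88 and 0.87 and 0.89, so it was closer to each of the 6 other arrays than the Ly6Clo array was. All arrays share the normalization, and the filter used the CX3CR1int arrays.

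**Figure D4:**
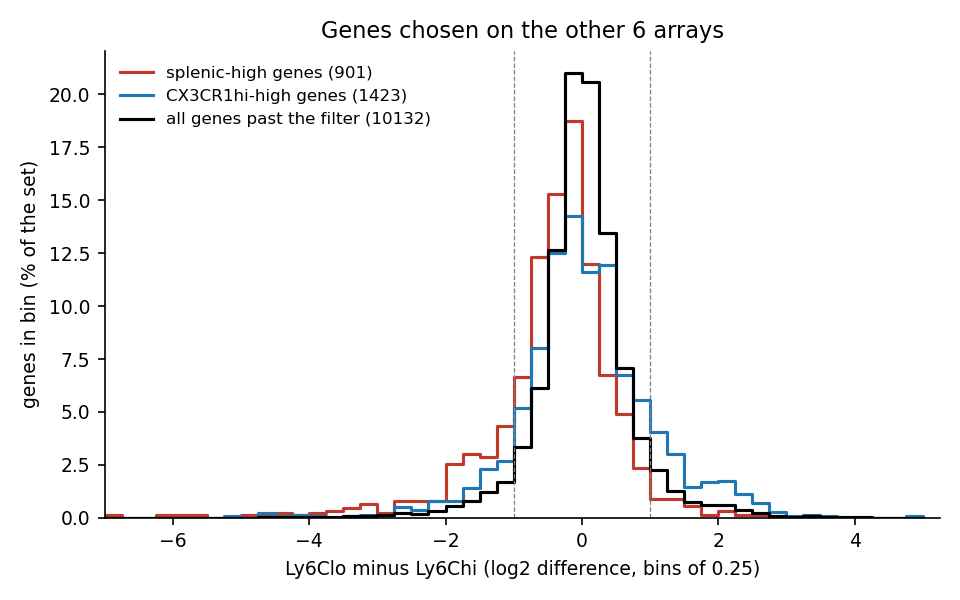
Distribution of Ly6Clo minus Ly6Chi log2 differences (horizontal, bins of 0.25) as percent of each set, for genes higher in splenic arrays, genes higher in CX3CR1hi arrays and all genes that entered, with dashed lines at 2-fold. The splenic-high set leans to the left with 18.0% beyond 2-fold lower, and the CX3CR1hi-high set is wide on both sides.

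Several lists of markers of other cells were brighter in the Ly6Chi array. Markers of natural killer and innate lymphoid cells summed the other way, to 10.37 in the Ly6Clo array against 9.20 in the Ly6Chi array, with 8.61 to 9.94 in the CX3CR1hi and 8.01 to 8.30 in the splenic arrays. Of 9 measured 3 entered, with a median of -0.39. Il7r, also counted among the growth factor receptor genes, was 2-fold higher, and the higher Ly6Clo sum rests largely on it. Gzmb and Nkg7 were lower but within 2-fold, and Ncr1, Klrb1c, Prf1 and Eomes did not enter. All 10 pancreatic acinar genes that were measured entered, and 9 were 2-fold lower in the Ly6Clo array (median -3.10), among them Ctrb1 (5.05 against 10.16), Cpa1 (4.85 against 9.59) and Rnase1 (4.98 against 9.06). Their summed signal, on the log2 scale, was 8.64 in the Ly6Clo array against 11.94 in the Ly6Chi array, and ranged from 9.52 to 12.26 over the CX3CR1hi arrays. Of 20 epithelial markers 5 were lower and none higher, led by Reg3b (6.75 against 11.28) and Reg3g (6.52 against 10.58), with summed signals of 14.50 against 14.86 and Epcam at 10.27 and 9.85. These genes also filled several of the largest differences on the Ly6Chi side, and their part in the counts was not tested.

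Plasma cell markers were lower in 6 of 7 (summed 11.74 against 13.51, Jchain 10.71 against 12.46), the exception being Irf4, which is also a dendritic cell gene. Stromal markers were lower in 4 of 10 (summed 11.05 against 11.95). Of 10 endothelial markers measured 7 entered, 4 lower and 1 higher (summed 9.21 against 10.06). Of the 10, 3 stood at or above the median in the Ly6Clo array and 7 in the Ly6Chi array, so others entered through the Ly6Chi array alone. Among 15 neutrophil markers measured 6 entered, 5 lower and 1 higher (summed 10.08 against 11.90, median -2.56, or -0.18 over all 15 without the filter), the lower ones being Mmp8, Cd177, Retnlg, Csf3r and Lcn2 and the higher one Ly6g (8.29 against 6.93). Splenic monocytes carried Mmp8 and Cd177 too (10.59 and 10.74, and 10.46 in both arrays), while Camp and Ngp, granule genes of maturing neutrophils, did not enter, nor did S100a8 (4.76 and 5.34) or S100a9 (4.76 and 5.17). Of 10 T cell markers measured 1 entered, Cd28, and Cd3d, Cd3e, Cd3g and Cd8a stayed below the median in both arrays. The part of neutrophil, plasma, stromal and endothelial RNA in the comparison was not tested.

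Genes that set both fractions apart from the other populations were read from a limma fit of 10673 genes over all 8 arrays, with the CX3CR1int, CX3CR1hi and splenic arrays as 3 populations. The pair of CX3CR1int arrays then stand in for repeats although they carry different labels, so the spread includes their own difference. Both came from colitis, whereas the CX3CR1hi and splenic populations each mixed colitis and steady-state arrays. The fit had no term for colitis, so its calls can include differences of colitis as well as of population, which was not tested. At a Benjamini-Hochberg adjusted p of 0.05, CX3CR1int arrays had 1417 genes higher (13.3%) and 1769 lower (16.6%) than CX3CR1hi arrays, and 1089 higher (10.2%) and 1516 lower (14.2%) than splenic arrays. Both contrasts called 227 genes higher (2.13%) and 225 lower (2.11%). Of these, 185 higher (1.73% of all fitted) and 211 lower (1.98%) were within 2-fold between the fractions. A small difference between the fractions lowers the spread, so genes alike in both are favoured by the fit.

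Shared higher genes were led by Cd7, a lymphoid and precursor surface protein gene, at 10.56 in the Ly6Clo and 9.77 in the Ly6Chi array, against 4.72 to 4.93 in the CX3CR1hi and 6.31 and 6.47 in the splenic arrays. Its log2 fold change was 5.35 ± 0.21 (SE) against CX3CR1hi and 3.78 ± 0.24 against splenic cells, with limma adjusted p of 1.47e-05 and 0.000254. Ifitm1, an interferon-induced membrane protein gene, stood at 12.51 and 12.14, against at most 9.38 in the 6 other arrays (3.28 and 3.36 higher, limma adjusted p of 0.000121 and 0.00027). Il6 was 3.11 ± 0.28 higher than in CX3CR1hi and 3.60 ± 0.33 higher than in splenic cells (limma adjusted p of 0.000451 and 0.000567). A gene was fitted when at least 2 arrays stood at or above their medians, and Il6 did so in the CX3CR1int arrays alone. It thus entered the fit only through the arrays where it was high, as did Htr7, Chst11 and Slc4a11 below, and their p-values are no separate support. Each of these 3 genes was thus high in both fractions, with neither CX3CR1int array overlapping any other array.

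The other leading shared genes were Htr7, a serotonin receptor gene, Adam8, a protease gene of leukocytes, Tnfsf9, a costimulatory ligand gene (10.36 and 10.24, against at most 8.09), Slc4a11, Chst11, Cd209d, Uck2, Lmnb1, which encodes lamin B1, and Pvr. Uck2 read -0.26 between the fractions on the probe set used and -1.19 on its other one, where they were over 2-fold apart, so its place among the shared genes rests on the first. Nod2, the sensor of bacterial muramyl dipeptide, was shared too, at 8.99 and 9.27, against at most 6.79 in CX3CR1hi and 7.92 and 7.59 in splenic arrays. Among list members that entered, shared higher genes made up 4 of 28 mature dendritic cell genes and 4 of 14 costimulation genes. They also made up 4 of 23 hypoxia and glycolysis genes and 3 of 31 conventional dendritic cell genes, beside 1.73% of all genes fitted. The list members had passed a filter on the CX3CR1int arrays and the fitted genes a filter on all 8 arrays, so the shares are of unlike sets.

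Shared lower genes were led by Cx3cr1 (7.51 and 7.95, against 10.88 to 11.34 in CX3CR1hi and 10.76 and 9.95 in splenic arrays), which the gate itself selected and which is no finding. Next came Spic, a transcription factor gene of iron-recycling macrophages (6.42 and 7.32, against at least 8.54), with log2 fold changes of -2.09 ± 0.34 and -2.04 ± 0.39 and limma adjusted p of 0.00461 and 0.00974. Cebpa, which encodes a myeloid transcription factor, stood at 7.94 and 8.37, against 9.93 to 10.13 in CX3CR1hi and 9.71 and 9.51 in splenic arrays (-1.84 ± 0.15 and -1.45 ± 0.17, limma adjusted p of 0.000275 and 0.00155). Alox5, the enzyme that starts leukotriene synthesis (6.28 and 6.37, against at least 7.66), and Tgfbr1, a receptor for TGF-beta (9.26 and 9.52, against at least 10.55), were lower as well. Hpgd, Dusp7, Lilra5, Sec14l1, Tspan32, Mtmr10 and Stard8 completed the 12 leading genes. Among list members that entered, shared lower genes made up 4 of 22 lysosomal genes and 3 of 13 retinoic acid and TGF-beta activation genes. The share of all genes fitted, which passed another filter, was 1.98%.

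The shared counts rest on few arrays. Without the steady-state splenic array they were 73 higher and 34 lower, without the colitis splenic array 88 and 56, without the Ly6Clo array 137 and 119, and without the Ly6Chi array 360 and 408. The leading higher genes all kept their call without any 1 of the splenic or CX3CR1hi arrays. When either CX3CR1int array was left out, Il6, Htr7, Chst11 and Slc4a11 no longer passed the filter and were not fitted. They stayed below the median in all CX3CR1hi and splenic arrays, so leaving out a CX3CR1int array cannot check their call. The rest of the leading higher genes kept the call in both cases. Of the 12 leading lower genes 6 kept the call without the steady-state splenic array, 8 without the colitis splenic array and 11 without the Ly6Clo array. Lost were Lilra5, Spic, Stard8 and Tspan32 in both splenic cases, Sec14l1 and Tgfbr1 in the first of them and Tspan32 without Ly6Clo. With sex as labelled as a block the counts were 121 and 86, with all 24 leading genes called. The steady-state splenic array, labelled female, carried both Xist (10.04) and the Y-linked Eif2s3y (10.28), whereas both CX3CR1int arrays matched the label male.

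**Figure D5:**
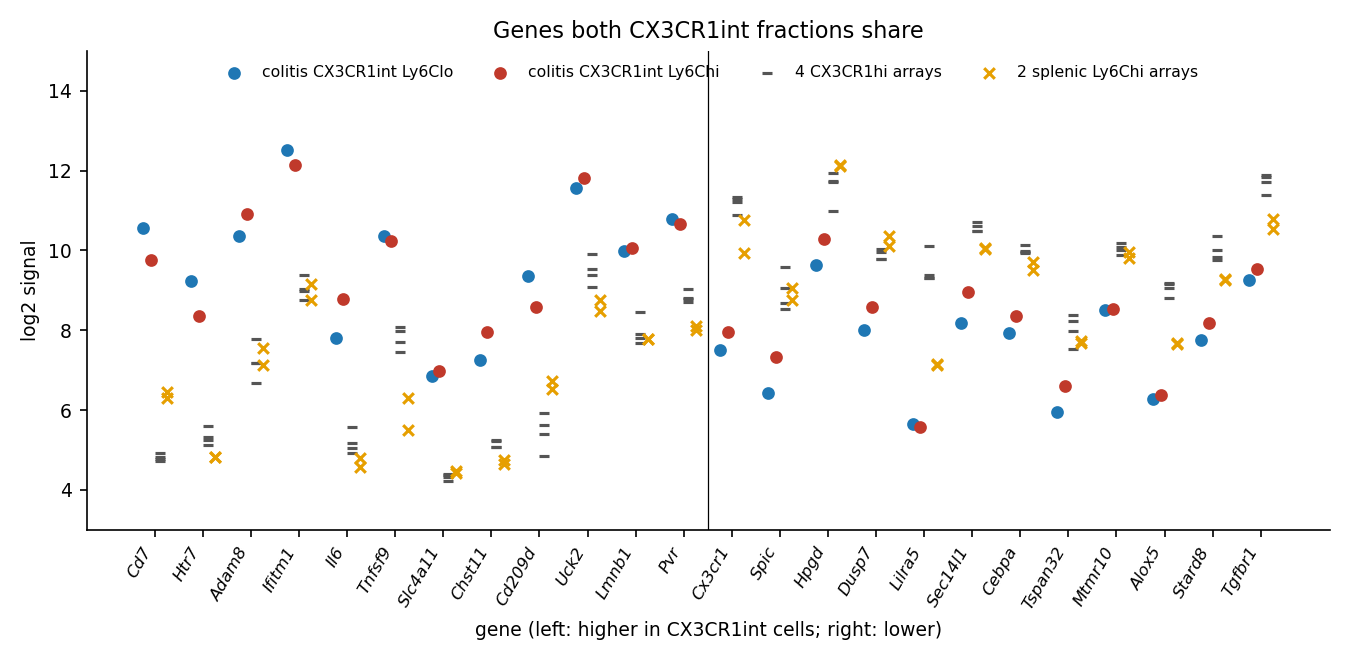
Log2 signal of the 12 leading shared higher genes (left) and 12 leading shared lower genes (right) in the Ly6Clo and Ly6Chi arrays (circles), the 4 CX3CR1hi arrays (dashes) and 2 splenic arrays (crosses). For each gene both CX3CR1int points lie on the same side of all 6 other arrays.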

How the data were processed

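RNA from sorted cells was measured on 8 Affymetrix arrays, 1 for each labelled population. The deposited values are log2 signals, and the submitters' processing notes name RMA and Partek; versions, settings and build are not given in the sources used here. Probe sets were named from the platform's gene annotation, and of these 21698 matched by Entrez identifier, with no symbol changed by it. Of 35399 probe sets 21789 had 1 symbol, 1621 had several and 11989 had none, and the 19938 genes took their probe set of highest mean, which mattered for 999 genes.

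Ly6Clo minus Ly6Chi differences were taken for genes whose brighter array reached its median, and named when at least 2-fold. Named genes were the 15 furthest in each direction (without antigen receptor segments, clustered histone genes, predicted genes and clones, small RNAs, and receptors of the olfactory or vomeronasal kind), list members 2-fold apart or among the 8 of their list that differed most, the 12 leading shared genes each way, and a set of lineage and cytokine genes given whatever their values. Plac8, S100a4, Epcam, Xist and the mast cell, T cell, innate lymphoid and neutrophil markers that did not enter fall outside that rule and were named after their values were seen. The gene lists and members were chosen with earlier results of these data known. The 3-population comparison used limma in R with Benjamini-Hochberg adjustment at 0.05. It was also run on simulated data, in which the CX3CR1int arrays were true repeats and only the contrast against CX3CR1hi was scored. That run therefore does not check the splenic contrast, the shared calls or the use of different fractions as repeats. Array number limits the precision. P-values measure only the spread between these arrays, as the labels name no separate animals. Alternatives changed the brightness filter, probe set, sex block, prior and arrays included.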

Additional observations from a re-analysis of the deposited data

How the results depend on the processing

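With 1 array a group, the Ly6Clo against Ly6Chi differences could not be recomputed without an array, and no paired fit exists. No paired analysis was possible because each group has 1 array and the labels give no shared replicate numbers. With the filter at the 75th percentile, 374 genes were higher and 353 lower in the Ly6Clo array, 12 S phase and 20 mitosis genes were higher, 75 CX3CR1hi-high genes were lower, and 1083 genes were lower in CX3CR1int than CX3CR1hi cells. Fewer genes enter under this filter. With sex as a block, CX3CR1int cells had 836 genes higher and 1156 lower than CX3CR1hi cells and 944 lower than splenic cells. Called in both contrasts were then 148 higher and 90 lower, and shared 121 and 86; the cause was not tested. Leaving out 1 array at a time gave 991 to 1796 genes higher and 1378 to 1838 lower against CX3CR1hi, and 413 to 1674 higher and 206 to 2058 lower against splenic cells. Called in both contrasts were 79 to 683 higher and 34 to 590 lower, and shared were 73 to 360 higher and 34 to 408 lower. Of 2247 values for single genes and lists under alternatives, 2231 moved less than the limit of 0.363, 16 moved and 0 reversed. Much of this count was fixed in advance. A change of brightness filter cannot alter the difference of any of the 407 named genes. Centring the arrays, whose medians were 5.84 and 5.86, shifts every difference by the same small amount. Averaging probe sets alters only genes with several. The count therefore says little about how stable the single-gene differences are.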

Other observations

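Lipid uptake, efflux and synthesis genes were balanced, with 5 higher, 5 lower and 10 within 2-fold of 20 (median 0.00). The higher ones were Sqle (1.59), Idi1 (1.43) and Hmgcs1 (1.37), enzymes of cholesterol synthesis, Cd36 (1.35), a fatty acid receptor gene, and Scd2 (1.01), a desaturase gene. The lower ones were the scavenger receptor genes Msr1 (-2.98) and Olr1 (-1.64), the cholesterol exporter gene Abca1 (-2.50), Apoe (-1.67) and Fabp4 (-1.45).

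Markers of patrolling monocytes, the Ly6Clo monocytes of blood, were 2-fold higher in 2 and lower in 4 of 10 (median -0.17). The lower ones included Ace (-2.75), Treml4 (-2.45) and Adgre4 (-2.28), and the higher ones were Eno3 (1.53) and Cd300e (1.17). Among clade B serpins, inhibitors of proteases inside cells, Serpinb6b (4.04) and Serpinb9 (3.26) were higher and Serpinb2 (5.21 against 8.20), Serpinb10 (-2.68) and Serpinb8 (-1.93) lower. Of 20 integrin and homing genes 4 were higher and 5 lower, with the gut homing receptor gene Ccr9 higher (1.87) and Itgb5 (-2.47) and Itgal (-1.82) lower.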
